A study of Mus musculus with 38 samples.

Results

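Med12 is a subunit of Mediator, and most of its binding sites in early lymphoid cells were shared with p300 and RUNX1. The sites described here are the exceptions: Med12 peaks that shared not a single base with any p300 or RUNX1 peak of either stage. They were selected on the deposited peak lists, by position alone, from the LP and the Phase 1 Med12 list. Of 30020 Med12 peaks in LP, 677 (2.26%) met the rule, and of 39132 in Phase 1, 1098 (2.81%) did, which gave 1775 of 69152 peaks in all. They are called p300/RUNX1-free Med12 sites. Of the remaining Med12 peaks, 27406 in LP and 32721 in Phase 1 had both factors, 1288 and 4195 had p300 only, and 649 and 1118 had RUNX1 only.

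The ChIP-seq data came from Cas9-LP cells, a line of lymphoid progenitors (LP) made from fetal liver progenitors that lack Ebf1 and carry Cas9 at the Rosa26 locus, so every group shares that deletion and that transgene. LP cells were grown on OP9 stroma with no Notch ligand, and Phase 1 cells were the same line after 2 days on OP9-DLL4, the same stroma with the Notch ligand DLL4 on its surface. For the sgCont and sgCbfb Med12 lists, guide RNAs were delivered by retrovirus, against luciferase as the control or against Cbfb, the partner that RUNX proteins need to bind DNA, and the cells were taken at Phase 1. RUNX1 lists with guides were also read, with control guides or guides against Ctcf (sgCTCF) in LP, and control guides or guides against Med12 (sgMed12) in Phase 1. A Notch1-IC list came from Phase 2, the later stage that is committed to the T lineage. The 38 samples made 19 groups of 2 replicates, and each of the 17 ChIP groups was deposited as 1 list in which both replicates were combined, so no value per replicate was used. The study's discussion calls the ChIP-seq of cells deficient in Cbfb, Ctcf or Med12 noisier than usual, because few cells could be prepared, and a guide list stands for a pool of cells rather than a clone.

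Mediator links transcription factors on enhancers and promoters to RNA polymerase II, and Med12 belongs to its detachable kinase module. p300 is an acetyltransferase that marks active enhancers, and RUNX1 is a DNA-binding factor needed for blood progenitors and for T cell development. CTCF binds a long consensus and holds chromatin loops together with cohesin. PU.1, encoded by Spi1, is an ETS factor of progenitor and myeloid cells that early T cell precursors still express before they commit.

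The sequences below show what the sites look like, as 200 bp around the peak centre in mm10, read from the GRCm38 assembly of RefSeq. Capitals mark a searched string on either strand: the CTCF consensus, a RUNX string (TGTGGTT or TGCGGTT), a PU.1 string (GAGGAAGT) or an E-box (CACGTG). The first 5 are the highest-scored sites with CTCF and without CTCF in each stage and the highest-scored one found in both guide lists, each a separate locus, with windows over an untranslated region, and those on 1 chromosome whose sequence is not printed here, passed over. The other 4 were chosen after the values were seen, as the highest-scored carriers of a string that is counted further on.
LP with CTCF (intron of Antxr1, in an ERVL-MaLR repeat), chr6:87152966-87153165, plus strand: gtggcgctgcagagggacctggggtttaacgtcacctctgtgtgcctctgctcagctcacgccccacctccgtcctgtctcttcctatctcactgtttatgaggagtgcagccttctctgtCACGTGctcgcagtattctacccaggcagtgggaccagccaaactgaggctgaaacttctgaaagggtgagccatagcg
LP without CTCF (intron of Usp5), chr6:124828947-124829146, plus strand: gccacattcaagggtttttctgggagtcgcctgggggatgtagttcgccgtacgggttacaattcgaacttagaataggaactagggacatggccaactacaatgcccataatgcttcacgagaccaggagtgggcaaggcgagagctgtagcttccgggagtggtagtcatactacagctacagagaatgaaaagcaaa
Phase 1 with CTCF (intron of Ptma), chr1:86528141-86528340, plus strand: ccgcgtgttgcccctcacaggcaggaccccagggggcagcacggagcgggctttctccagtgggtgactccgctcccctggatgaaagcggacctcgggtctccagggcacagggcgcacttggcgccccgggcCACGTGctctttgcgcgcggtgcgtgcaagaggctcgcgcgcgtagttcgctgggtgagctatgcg
Phase 1 without CTCF (promoter of Sypl), chr12:32954488-32954687, plus strand: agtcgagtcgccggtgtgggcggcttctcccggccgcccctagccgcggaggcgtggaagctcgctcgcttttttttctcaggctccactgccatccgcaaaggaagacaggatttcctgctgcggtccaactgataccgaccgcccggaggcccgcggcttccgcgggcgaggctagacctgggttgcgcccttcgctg
Phase 1 in both guide lists (intron of Actr2), chr11:20112280-20112479, plus strand: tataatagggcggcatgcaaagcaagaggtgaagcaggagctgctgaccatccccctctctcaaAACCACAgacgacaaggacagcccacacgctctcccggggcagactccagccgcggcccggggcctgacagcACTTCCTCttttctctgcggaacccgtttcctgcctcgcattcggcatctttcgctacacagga
LP with CTCF and its consensus (intergenic, nearest gene Sv2b), chr7:75371014-75371213, plus strand: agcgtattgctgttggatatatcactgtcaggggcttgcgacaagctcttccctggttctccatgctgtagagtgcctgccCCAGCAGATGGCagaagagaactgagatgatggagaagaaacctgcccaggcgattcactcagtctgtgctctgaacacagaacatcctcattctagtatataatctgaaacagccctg
Phase 1 with CTCF and its consensus (intergenic, nearest gene Impdh1), chr6:29198635-29198834, plus strand: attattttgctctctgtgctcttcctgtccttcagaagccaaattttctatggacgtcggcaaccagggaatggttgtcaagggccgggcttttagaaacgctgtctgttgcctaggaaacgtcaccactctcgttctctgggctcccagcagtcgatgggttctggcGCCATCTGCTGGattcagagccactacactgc
Phase 1 with a RUNX string (intron of Stat3), chr11:100935512-100935711, plus strand: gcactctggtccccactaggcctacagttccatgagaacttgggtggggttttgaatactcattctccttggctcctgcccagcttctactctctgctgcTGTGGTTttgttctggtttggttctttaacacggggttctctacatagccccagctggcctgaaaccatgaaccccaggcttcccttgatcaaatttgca
Phase 1 with a PU.1 string, in the sgCbfb and not the sgCont list (intron of Sh3gl3, in an ERVK repeat), chr7:82238357-82238556, plus strand: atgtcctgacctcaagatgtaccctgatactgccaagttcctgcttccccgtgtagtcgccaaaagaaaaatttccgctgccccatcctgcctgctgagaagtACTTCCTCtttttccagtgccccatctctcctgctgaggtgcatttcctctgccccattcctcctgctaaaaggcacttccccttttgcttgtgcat

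The Usp5 and Sypl windows held none of the strings. The Actr2 window held a RUNX string and a PU.1 string, although no RUNX1 peak overlapped the site. The consensus in the Sv2b and Impdh1 windows lay under a CTCF peak of the same stage.

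The sites were weak members of their lists. The peak score is a normalized value from HOMER that starts at 15 in these lists and was read only within 1 list. The median score was 18.7 at p300/RUNX1-free sites and 49.9 at the other Med12 peaks in LP, and 18.2 and 41.3 in Phase 1. Med12 peaks with p300 only were about as weak, with medians of 20.5 and 19.9. When each list was cut into 5 classes of equal size by score, 494 of the 677 LP sites and 791 of the 1098 Phase 1 sites fell into the lowest class. Few sites were strong, with 15 in the top class in LP and 20 in Phase 1.

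The strong sites mostly had p300 or RUNX1 nearby. Of the 15 top-class sites in LP, 12 lay within 1 kb of a transcription start and 11 had a p300 or RUNX1 peak less than 300 bp away. Of the 20 in Phase 1, 15 and 12 did. Promoter annotation is common among all strong Med12 peaks, with 53.3% of the top-class sites and 58.8% of the other top-class peaks in LP, and 45.0% and 41.7% in Phase 1. The highest-scored LP site was at Ddx5, an RNA helicase, on chr11:106788522-106788876 over the 5′ end of the gene, with a score of 445.2 and the nearest p300 or RUNX1 peak 21 bp away. The Ddx5 site was also p300/RUNX1-free in Phase 1 (score 222.8), and it was listed in sgCont (135.0) and sgCbfb (147.5). An intronic site of Usp5, a deubiquitinase, was likewise in all 4 Med12 lists, with scores of 275.9 in LP, 190.3 in Phase 1, 114.1 in sgCont and 145.4 in sgCbfb. A site at the Cops3 promoter, a gene of the COP9 signalosome, had 245.0, 129.0, 82.6 and 100.9 in the same order of lists. Each list has its own scale, so these scores show that the sites were listed and not how the signal changed.

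Over all sites the gap to p300 or RUNX1 was larger. The median gap from the edge of a site to the nearest p300 or RUNX1 peak was 4.45 kb in LP and 5.16 kb in Phase 1. In LP 128 sites (18.9%) had a gap under 1 kb and 177 (26.1%) one of 10 kb or more, and in Phase 1 the counts were 222 (20.2%) and 396 (36.1%). At the border of the rule, the smallest gap was 3 bp in both stages, at 2210406O10Rik in LP and at Psap in Phase 1, and 3 LP and 6 Phase 1 sites lay within 10 bp. Just outside the rule, the smallest overlap was 10 bp in LP and 3 bp in Phase 1, and 1 LP and 5 Phase 1 peaks overlapped by 10 bp or less. The plot of score against gap shows that the high scores gather at small gaps.

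**Figure D1:**
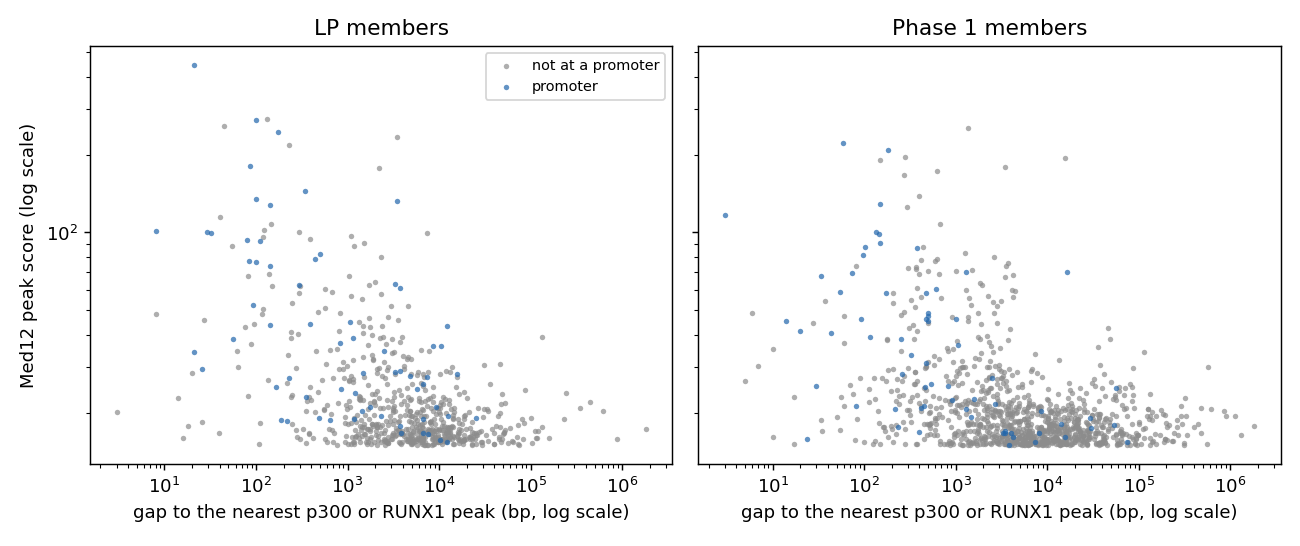
Score of each p300/RUNX1-free Med12 site (y axis, log scale, within its own list) against the gap in bp to the nearest p300 or RUNX1 peak (x axis, log scale), for 677 LP and 1098 Phase 1 sites, with promoter sites in blue. Scores above 100 are mostly at gaps under 1 kb, and the sites 10 kb or more away have median scores of 17.1 in LP and 17.3 in Phase 1.

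The sites were compared with the Med12 list of the other stage. The rule also removed sites with a p300 or RUNX1 peak of the other stage. Most Med12 peaks of either stage had p300 or RUNX1, so low shares here follow in part from the rule. Of the LP sites, 114 (16.8%, 95% Wilson interval 14.2% to 19.8%) overlapped a Phase 1 Med12 peak, against 82.0% (81.5% to 82.4%) of the other LP Med12 peaks. Of the Phase 1 sites, 113 (10.3%, 8.63% to 12.2%) overlapped an LP Med12 peak, against 63.3% (62.8% to 63.7%) of the others. Over the whole lists the shares were 80.5% and 61.8%. The odds ratios were 0.0445 (adjusted p = 3.80e-287) and 0.0666 (adjusted p = 7.95e-286) by two-sided Fisher's exact tests, with Benjamini-Hochberg adjustment over 17 tests. With the 5 score classes held fixed by the Mantel-Haenszel method, the odds ratios were 0.103 and 0.188. With p300 and RUNX1 lists of the same stage only, they were 0.124 and 0.228, with shares of 36.2% in LP and 28.1% in Phase 1. A low share was not particular to the sites, since Med12 peaks with p300 only were in the other list at 27.6% in LP and 8.80% in Phase 1. Peaks are not replicates of a culture, so all p-values and intervals cover counting error between peaks of 1 pair of lists only.

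Where an LP site overlapped a Phase 1 Med12 peak, that peak nearly always met the rule too, at 111 of the 114 LP sites. This is nearly set by the rule, since both Med12 lists were held against the same p300 and RUNX1 peaks. It is therefore no result about the stability of the sites. Of these 111, 16 were at promoters, 11 had an LP CTCF peak, 15 were in the sgCont list and 32 in the sgCbfb list. Among the highest-scored sites that were not in the other list was, in LP, the promoter of Hnrnpa1, which encodes an RNA-binding protein (score 272.0). In Phase 1 the 3 highest-scored were an intron of Ptma, the gene of prothymosin alpha (254.3), the promoter of Sypl (207.7) and the coding sequence of Eif1, a translation initiation factor (196.2). The nearest p300 or RUNX1 peak was 101 bp from the Hnrnpa1 site, 277 bp from the Eif1 site and 1372 bp from the Ptma site.

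**Figure D2:**
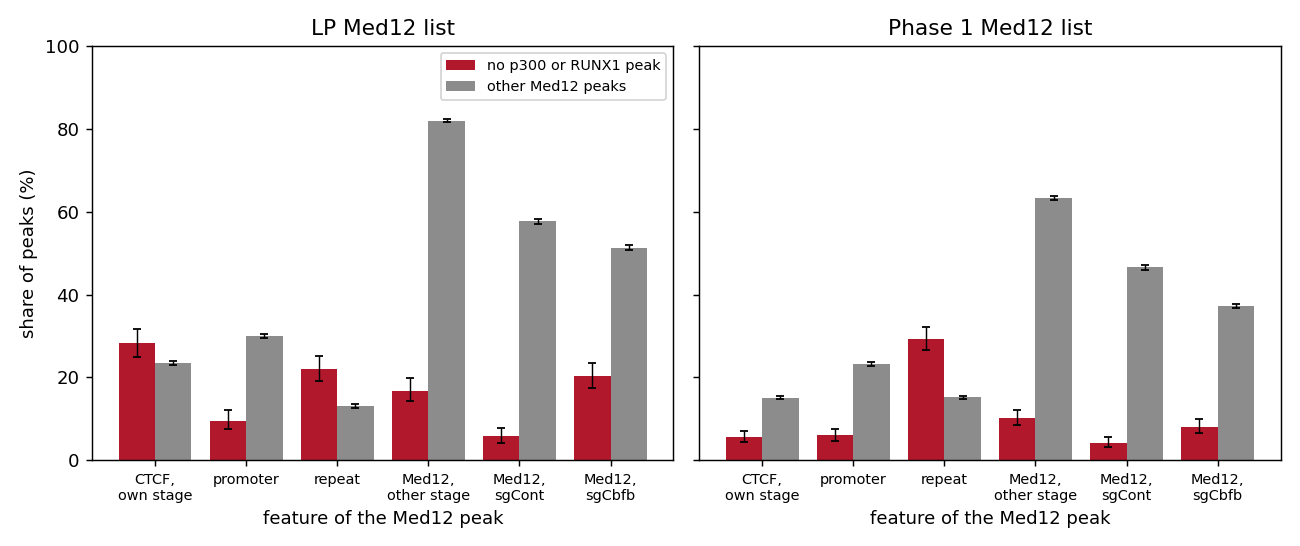
Share of Med12 peaks (y axis, %) that overlapped a CTCF peak of the same stage, were annotated to a promoter or a repeat, or overlapped a Med12 peak of the other stage, of the sgCont list or of the sgCbfb list, for p300/RUNX1-free sites (red) and other Med12 peaks (grey); error bars are 95% Wilson intervals. CTCF overlap is 28.2% against 23.5% in LP and 5.56% against 15.1% in Phase 1.

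CTCF differed between the stages. In LP, 191 of 677 sites (28.2%, 25.0% to 31.7%) overlapped an LP CTCF peak, compared with 23.5% (23.0% to 24.0%) of the other Med12 peaks and 23.6% of the whole list. In Phase 1, 61 of 1098 sites (5.56%, 4.35% to 7.07%) overlapped a Phase 1 CTCF peak, compared with 15.1% (14.7% to 15.4%) of the others and 14.8% of the whole list. The odds ratio was 1.28 in LP (Fisher's exact test, adjusted p = 0.00678) and 0.332 in Phase 1 (adjusted p = 4.54e-22). Between the stages, p300/RUNX1-free sites of LP had 6.68 times the odds of CTCF of those of Phase 1 (Fisher's exact test, adjusted p = 6.26e-39), although 111 sites are in both sets. This odds ratio was 2.43 with scores of at least 30, 3.12 with equal numbers of top-scored peaks and 3.58 with same-stage lists, and it passed the test in each. The LP excess did not pass Fisher's exact test when only p300 and RUNX1 lists of the same stage were used (odds ratio 1.02, adjusted p = 0.866), when repeat peaks were left out (1.20, 0.0747) or with scores of at least 30 (1.19, 0.492). Within score classes it was 1.48 (n = 677 sites, adjusted p = 1.55e-05), with 27.3% against 20.3% in the lowest class and 2 of 15 sites (13.3%) against 27.0% in the top class. The Phase 1 deficit was 0.520 within score classes, and with scores of at least 30 it did not pass Fisher's exact test (0.732, adjusted p = 0.303).

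A CTCF share near 28% was not particular to the sites. In LP it was 28.1% at Med12 peaks with p300 only and 28.0% at those with RUNX1 only, against 23.2% where both were present. In Phase 1 it was 6.77%, 7.60% and 16.4% in the same order. Seen from CTCF, Med12 without p300 and RUNX1 was rare. Of 35082 LP CTCF peaks that had neither p300 nor RUNX1, 226 (0.644%, 0.566% to 0.733%) had a Med12 peak, and of 34503 in Phase 1, 82 (0.238%, 0.192% to 0.295%) did. Among CTCF peaks with p300 or RUNX1 the shares were 66.6% and 55.5%.

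The median score of the CTCF peaks under the LP sites lay at the 78.8th percentile of the LP CTCF list, compared with the 64.3rd for CTCF peaks under other LP Med12 peaks. It was higher still at LP Med12 peaks with p300 only (85.1st) and with RUNX1 only (84.3rd), and lower at those with both (61.0th). In Phase 1 the order was the other way, with the 43.3rd percentile under the sites and the 56.9th under the others. The CTCF consensus stood in the 200 bp window of 34 of 677 LP sites (5.02%, 3.62% to 6.94%), compared with 1.67% of the others and 1.74% of the whole list (odds ratio 3.12, Fisher's exact test, adjusted p = 8.52e-08). Within score classes the odds ratio was 1.76. Med12 peaks of LP with p300 only (56 of 1288, 4.35%) and with RUNX1 only (4.95%) held it at a like share. All 34 of these windows were under an LP CTCF peak, as at the Sv2b site printed above. In Phase 1 it stood in 1 of 1097 windows, the Impdh1 site, compared with 0.626% of the others and 0.611% of the whole list (odds ratio 0.145, Fisher's exact test, adjusted p = 0.0189). The Phase 1 value rests on that 1 window. The call was lost under 4 alternatives, and with scores of at least 30 the odds ratio turned to 1.30 (Fisher's exact test, adjusted p = 0.553). With 1 mismatch allowed, 105 of the 191 LP sites with CTCF (55.0%) and 8 of the 61 Phase 1 sites with CTCF (13.1%) held the consensus, so many Phase 1 sites with a CTCF peak had no close match in the window. In flanking windows of equal length, 2 kb away, the consensus stood in 2 of 1354 in LP and 3 of 2194 in Phase 1.

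**Figure D3:**
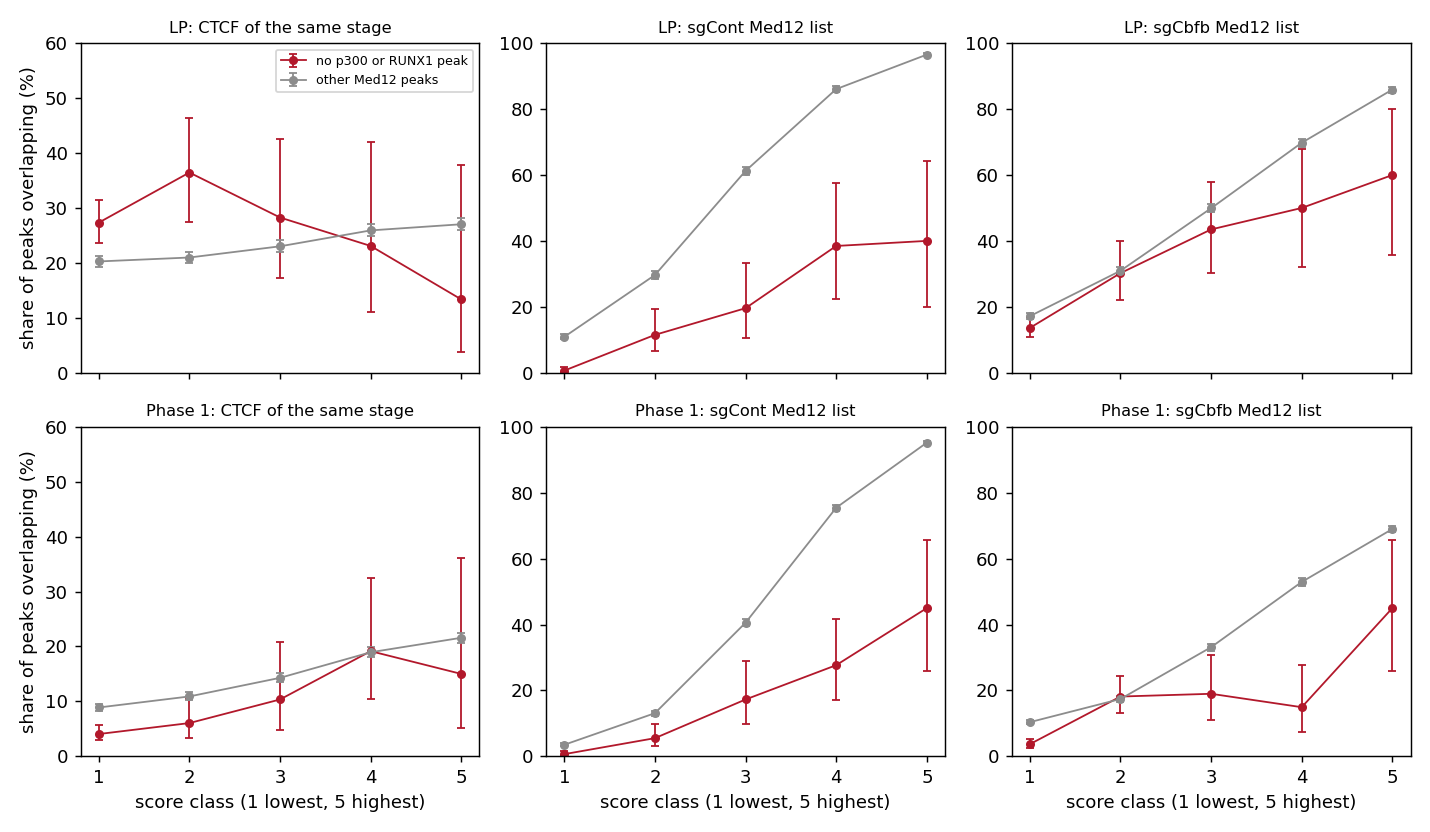
Share of Med12 peaks (y axis, %) that overlapped a CTCF peak of the same stage, an sgCont Med12 peak or an sgCbfb Med12 peak, by score class within the LP (top) and Phase 1 list (bottom), from 1 (lowest score) to 5; red points are p300/RUNX1-free sites, grey points other Med12 peaks, and bars are 95% Wilson intervals. In the lowest class CTCF is at 27.3% of LP sites and 20.3% of other LP peaks, but at 4.05% of Phase 1 sites and 8.88% of other Phase 1 peaks.

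At most LP sites with CTCF, a CTCF peak was listed in Phase 1 and a Med12 peak was not. Of the 191 sites, 174 (91.1%) overlapped a Phase 1 CTCF peak, but only 12 (6.28%, 3.63% to 10.7%) overlapped a Phase 1 Med12 peak. At 164 (85.9%, 80.2% to 90.1%) the CTCF peak was listed in Phase 1 with no Med12 peak. LP sites without CTCF were found in the Phase 1 Med12 list more often, at 102 of 486 (21.0%, 17.6% to 24.8%). The odds ratio was 0.252 (Fisher's exact test, adjusted p = 1.97e-06), and it was 0.243 within score classes. It did not pass Fisher's exact test with scores of at least 30 (0.500, adjusted p = 0.271) or with equal numbers of top-scored peaks from both stages (0.436, adjusted p = 0.0517). At LP Med12 peaks with CTCF and with p300 or RUNX1, 82.8% kept a CTCF peak and 74.5% a Med12 peak. The rule left out LP sites with a Phase 1 p300 or RUNX1 peak and did not use CTCF. The low Med12 share at the sites therefore follows in part from the rule. With same-stage lists, 35 of 236 LP sites with CTCF (14.8%) and 323 of 753 without (42.9%) were in the Phase 1 Med12 list. In the other direction, 12 of 61 Phase 1 sites with CTCF (19.7%, 11.6% to 31.3%) and 101 of 1037 without (9.74%, 8.08% to 11.7%) were in the LP Med12 list. That difference (odds ratio 2.27, Fisher's exact test, adjusted p = 0.0281) did not pass under 6 of 8 alternatives.

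The highest-scored LP sites with CTCF were the promoter of Cxxc5 on chromosome 18 (score 132.5), the Antxr1 intron printed above (115.2) and the Rnd2 promoter (100.6). All 3 were in the sgCbfb list and none in the sgCont list, and the Rnd2 site alone was also in Phase 1. The highest-scored Phase 1 sites with CTCF were the Ptma intron (254.3), an intron of Mbd3, a subunit of the NuRD complex (125.1), and a site 112 kb from the start of Irf2 (87.7). The CTCF peak at Ptma was at the 99.6th percentile of the Phase 1 CTCF list, and the site was in no other Med12 list. The Mbd3 and Irf2 sites were in both guide lists.

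Gene starts were less common than at other Med12 peaks. HOMER annotated 65 LP sites (9.60%, 7.60% to 12.1%) and 66 Phase 1 sites (6.01%, 4.75% to 7.58%) to a promoter, compared with 30.0% and 23.2% of the other peaks and 29.5% and 22.7% of the whole lists. The odds ratios were 0.248 (Fisher's exact test, adjusted p = 2.91e-36) and 0.212 (adjusted p = 8.67e-52). Med12 peaks with p300 only had lower shares than the sites, 8.46% in LP and 5.17% in Phase 1. Promoter peaks have high scores, and within score classes the LP difference did not pass the test (0.817, n = 677 sites, adjusted p = 0.153), whereas the Phase 1 difference did (0.620, n = 1098 sites, adjusted p = 0.00058). The LP share was above the Phase 1 share (odds ratio 1.66, Fisher's exact test, adjusted p = 0.00793). That order did not pass with scores of at least 30 (1.27) and turned when the same number of top-scored peaks was taken from both stages (0.599, Fisher's exact test, adjusted p = 0.0263). In LP 309 sites were intronic and 223 intergenic, and in Phase 1 468 and 493. The median distance to the nearest start was 14.2 kb and 24.3 kb, compared with 8.81 kb and 13.0 kb for the other peaks.

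Repeats held a larger part of the sites than of other Med12 peaks. A repeat was the annotation of 149 LP sites (22.0%, 19.1% to 25.3%) and 322 Phase 1 sites (29.3%, 26.7% to 32.1%), compared with 13.1% and 15.3% of the others and 13.3% and 15.7% of the whole lists. The share was 17.1% and 18.0% at Med12 peaks with p300 only, and 19.0% and 25.7% at those with RUNX1 only. In Phase 1, 79 were in L1 elements (7.19%, against 2.49% of the others) and 78 in ERVK elements, a family of endogenous retroviruses (7.10%, against 2.20%). In LP, 32 were in ERVK (4.73%, against 2.11%) and 17 in L1 (2.51%, against 1.74%). Of the 32 LP sites in ERVK, 19 (59.4%, 42.3% to 74.5%) were also in the Phase 1 Med12 list, compared with 16.8% of all LP sites. None of the 32 had a CTCF peak. The aligner settings of the study kept reads that matched several places in the genome, and their part in the repeat sites was not tested. With scores of at least 30 the repeat share of the sites was 11.2% in LP and 7.59% in Phase 1. Both lie below the 13.3% and 15.7% of the whole lists, which include weaker peaks. Repeat shares were not compared within score classes, so the part of low scores in the excess was not tested.

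The guide lists were read next, to see which sites reappeared in control cells and in cells with guides against Cbfb at Phase 1. Of the Phase 1 sites, 47 (4.28%, 3.23% to 5.65%) were in the sgCont list, compared with 46.5% of the others and 45.4% of the whole list (odds ratio 0.0514, Fisher's exact test, adjusted p = 1.66e-213). In the sgCbfb list there were 89 (8.11%, 6.63% to 9.87%), compared with 37.2% and 36.3% (odds ratio 0.149, Fisher's exact test, adjusted p = 1.60e-106). Within score classes the odds ratios were 0.219 and 0.452. Of Phase 1 Med12 peaks with p300 only, 2.41% were in the sgCont and 5.96% in the sgCbfb list. Of the LP sites, 39 (5.76%) were in the sgCont list and 138 (20.4%) in the sgCbfb list, where the whole LP list had 56.5% and 50.6%. Even in the top score class only 9 of 20 Phase 1 sites were in the sgCont list, against 95.2% of the other peaks of that class.

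The p300/RUNX1-free sites were found in the sgCbfb list more often than in the sgCont list. Of the LP sites, 106 were in the sgCbfb list alone, 7 in the sgCont list alone and 32 in both (exact binomial test on the sites in 1 list, two-sided, adjusted p = 1.99e-23 over 5 tests added after the values were seen). Of the Phase 1 sites, 63 were in the sgCbfb list alone, 21 in the sgCont list alone and 26 in both (exact binomial test, adjusted p = 4.97e-06). The other Med12 peaks went the other way, with 2751 in sgCbfb alone and 4615 in sgCont alone for LP, and 2088 and 5655 for Phase 1. Among peaks in only 1 guide list, the odds of its being the sgCbfb list were 25.4 times as high at the LP sites as at the other LP peaks (Fisher's exact test, adjusted p = 1.12e-35) and 8.13 times at the Phase 1 sites (adjusted p = 2.00e-19). Within score classes these were 25.4 and 2.70. The sites were chosen to lack RUNX1, most of the other peaks had it, and RUNX proteins need Cbfb to bind DNA. The comparison with the other peaks is therefore not independent of the rule. The excess at the Phase 1 sites did not remain with scores of at least 30, where the ratio of sgCbfb-only to sgCont-only sites was 0.933, and with equal numbers of top-scored peaks it was 1.63 (exact binomial test, adjusted p = 0.119). The sgCbfb peaks were 311 bp wide and the sgCont peaks 255 bp, and the part of that width in the ratio was not tested. With at least 50% of the shorter peak shared, a setting that also made 766 LP sites in place of 677, the LP ratio was 6.39 in place of 15.1. Over all alternatives the LP ratio ran from 5.44, with same-stage lists only, to 77.0, with a gap of at least 1 kb, and it passed the test in each. Med12 peaks of LP with p300 only, which also lack RUNX1, had a like pattern, with 24.6% in the sgCbfb list and 4.74% in the sgCont list. The excess was therefore shared with LP peaks that lacked RUNX1 but had p300. The shares of peaks with RUNX1 only are not given here.

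**Figure D4:**
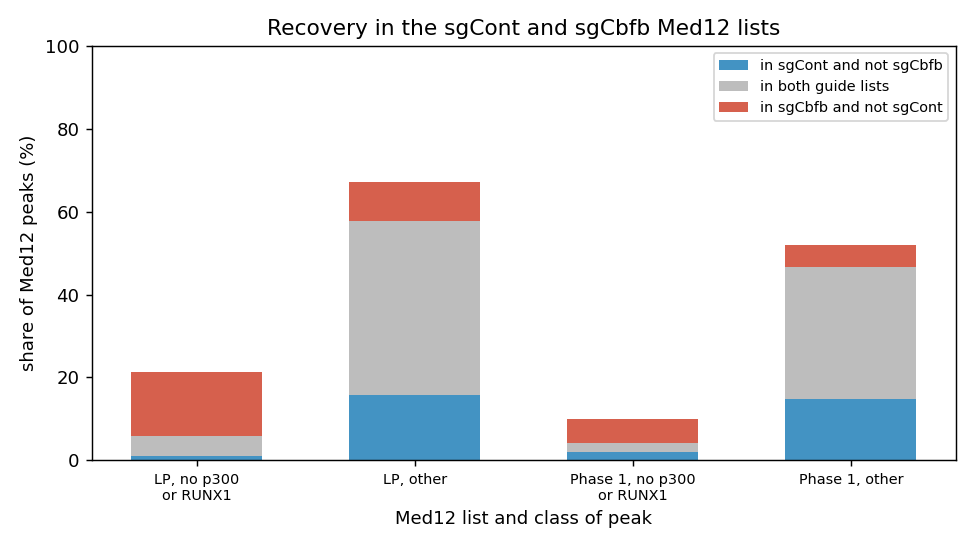
Share of Med12 peaks (y axis, %) found in the sgCont list only (blue), in both guide lists (grey) and in the sgCbfb list only (red), for p300/RUNX1-free sites and other peaks of the LP and Phase 1 Med12 lists. Of the 677 LP sites 106 are in the sgCbfb list alone and 7 in the sgCont list alone, while sgCont alone outnumbers sgCbfb alone at the other peaks.

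Among the sites, those with CTCF reappeared more often. The same split of the other Med12 peaks is not given here, so the difference is not shown to be particular to the sites. In LP, 67 of 191 sites with CTCF (35.1%, 28.7% to 42.1%) and 71 of 486 without (14.6%, 11.7% to 18.0%) were in the sgCbfb list (odds ratio 3.16, Fisher's exact test, adjusted p = 1.39e-08). In Phase 1, 17 of 61 with CTCF (27.9%) and 72 of 1037 without (6.94%) were in the sgCbfb list (odds ratio 5.18, Fisher's exact test, adjusted p = 2.84e-06), and 10 of 61 (16.4%) and 37 of 1037 (3.57%) in the sgCont list (5.30, adjusted p = 0.000194). The sgCont difference did not pass with scores of at least 30 (2.67) or with a gap of at least 1 kb (3.61). Of the 106 LP sites in the sgCbfb list alone, 57 (53.8%, 44.3% to 63.0%) had an LP CTCF peak, compared with 22.9% (19.6% to 26.7%) of the 532 in neither guide list. Of the other LP peaks in the sgCbfb list alone, 33.7% had one. Among the 47 Phase 1 sites in the sgCont list, the sgCbfb list held 26 (55.3%, 41.2% to 68.6%), and it held 68.1% of the other peaks in the sgCont list, a difference that did not pass Fisher's exact test (odds ratio 0.581, adjusted p = 0.0834). Its direction turned with promoter peaks left out (1.03) or a gap of at least 1 kb (1.17), and it passed with at least 50% overlap (0.462, Fisher's exact test, adjusted p = 0.00197).

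The RUNX and PU.1 strings were counted by stage and by guide list. Lack of a RUNX1 peak was used to choose the sites, so the shares are given as a description, with no test. A RUNX string stood in 63 of 677 LP windows (9.31%, 7.34% to 11.7%) and in 234 of 1097 Phase 1 windows (21.3%, 19.0% to 23.9%), and in the whole lists in 18.7% and 22.5%. In the flanks it stood in 6.13% of windows in LP and 4.60% in Phase 1. So the Phase 1 sites held RUNX strings at about the share of all Phase 1 Med12 peaks, without an overlapping RUNX1 peak in either stage, as at the Stat3 intron printed above. The share was 27.8% (23.7% to 32.5%) at the Phase 1 sites 10 kb or more from p300 and RUNX1 and 13.5% (9.63% to 18.6%) at those under 1 kb away. Of the 234 Phase 1 sites with the string, 4 were in the sgCbfb list and 7 in the sgCont list. The share fell to 13.2% with scores of at least 30.

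A PU.1 string stood in 77 LP windows (11.4%, 9.20% to 14.0%) and 178 Phase 1 windows (16.2%, 14.2% to 18.5%), compared with 9.64% and 8.90% of the whole lists and 1.18% and 1.05% of the flanks. In Phase 1 the share was 5.17% at Med12 peaks with p300 only and 13.0% at those with RUNX1 only. Among the 63 Phase 1 sites in the sgCbfb list alone, 25 (39.7%, 28.5% to 52.0%) held the PU.1 string and 2 (3.17%) a RUNX string, whereas among the 987 in neither guide list that had a window the shares were 14.9% (12.8% to 17.3%) and 22.8% (20.3% to 25.5%). Of the other Phase 1 peaks in the sgCbfb list alone, 19.3% held a PU.1 string, and of those in the sgCont list alone 38.0% held a RUNX string. Fewer Phase 1 sites in the sgCbfb list alone remained under the alternatives. The PU.1 share was 33.3% of 48 such sites without repeat peaks and 25.8% of 31 with equal numbers of top-scored peaks. With scores of at least 30 it was 7.14% of 14 such sites. In LP the PU.1 string and CTCF lay at different sites, with the string at 5 of 191 sites with CTCF (2.62%) and at 72 of 486 without (14.8%). LP sites with the string were in the Phase 1 Med12 list at 35.1% (25.3% to 46.2%), and those without at 14.5% (11.9% to 17.5%). A string is a match of letters, not a measured binding site, and PU.1 itself was not measured in these lists.

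**Figure D5:**
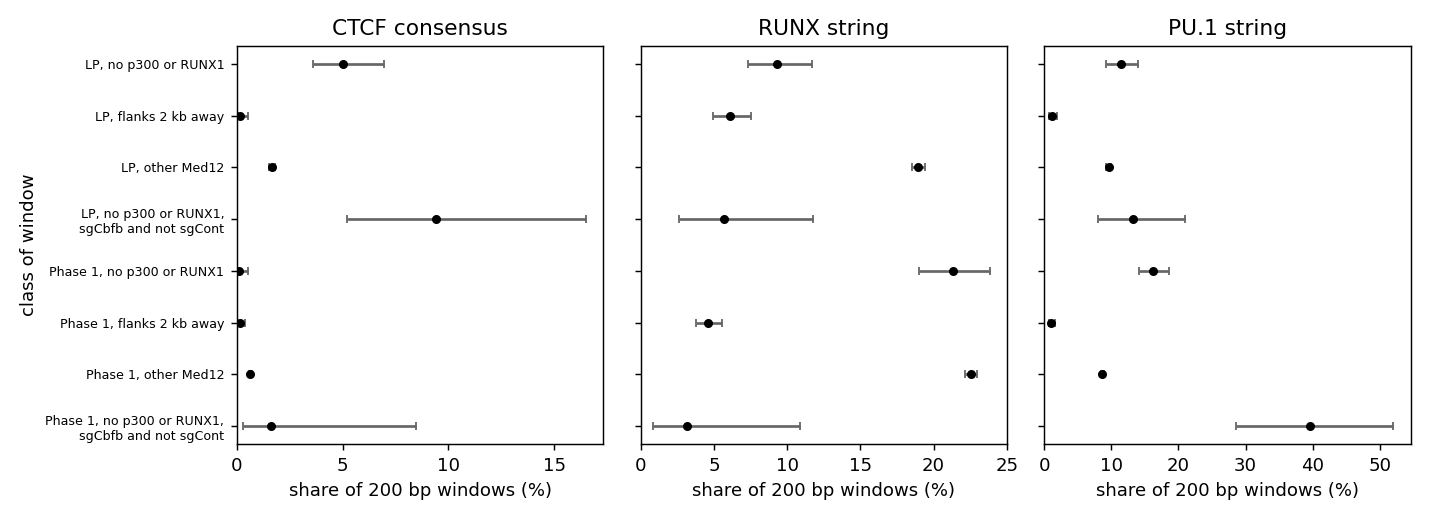
Share of 200 bp windows (x axis, %) that hold the CTCF consensus, a RUNX string or a PU.1 string, for p300/RUNX1-free sites, their flanks 2 kb away, other Med12 peaks, and the sites in the sgCbfb and not the sgCont list, in LP and Phase 1; bars are 95% Wilson intervals. The PU.1 string is at 39.7% of the Phase 1 sites in the sgCbfb list alone, and the RUNX string is at 21.3% of all Phase 1 sites but 9.31% of LP sites.

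Lineage genes were looked at by list, and for each list the share of the whole Med12 list lies within the interval. Of the Med12 peaks whose nearest gene is on a list of 30 T-lineage genes, 4 of 98 in LP (4.08%, 1.60% to 10.0%) and 2 of 154 in Phase 1 (1.30%, 0.357% to 4.61%) were p300/RUNX1-free, beside 2.26% and 2.81% of the whole lists. The LP sites were at the promoter of the costimulatory receptor Cd28 (score 74.4), in an intron of the receptor Notch3 (44.9), 244 kb from the start of Tox, a nuclear factor of T cell development (20.1), and in an intron of the T cell receptor subunit Cd247 (18.7). The Phase 1 sites were 41.9 kb from the start of Tox (17.6) and 4.22 kb before Lef1, a nuclear effector of Wnt signalling in T cells (17.5). None of these 6 sites was in the Med12 list of the other stage. The Cd28 site was in the sgCbfb list (29.6) and not in the sgCont list.

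On the list of 24 stem and progenitor genes, 3 of 75 LP peaks and 0 of 101 Phase 1 peaks were p300/RUNX1-free. They lay 12.8 kb from Lmo2, a transcriptional cofactor of blood progenitors (39.0), near Cd44 (23.1) and near Mycn (16.4). On the list of 12 myeloid genes the counts were 0 of 39 and 2 of 42, the latter near Csf2ra (44.8) and Irf8 (20.2). On the list of 12 B-lineage genes none of 27 peaks in either stage was p300/RUNX1-free, and at the Pcdh and Hox clusters none of 3 in LP and of 9 in Phase 1. With so few peaks, a share of up to 3.66% of the 101 stem and progenitor peaks and up to 12.5% of the 27 B-lineage peaks is within the interval of a count of 0.

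Notch1-IC, the released intracellular part of Notch1, had peaks at few of the sites. The LP cells had no Notch ligand, yet their Notch1-IC list held 1585 peaks, against 152 in Phase 1 and 352 in Phase 2. With lists of such unlike length, the shares below do not rank Notch1-IC binding by stage. In LP, 3 of 677 sites (0.443%, 0.151% to 1.29%) overlapped an LP Notch1-IC peak, at Adipor2, Mir6546 and 1700003C15Rik (named after their values were seen), compared with 4.81% of the other Med12 peaks. In Phase 1, the Sypl promoter overlapped a Notch1-IC peak of Phase 1 and of Phase 2, and the Irf2 and 4933402N22Rik sites overlapped one of LP. Of all Phase 1 Med12 peaks, 0.335% overlapped a Phase 1, 0.695% a Phase 2 and 3.61% an LP Notch1-IC peak, so the counts at the sites for Phase 1 and Phase 2 are too small to compare. The Sypl site also overlapped a RUNX1 peak in both Phase 1 guide lists, sgCont and sgMed12, although it had none in the LP and Phase 1 RUNX1 lists used by the rule. The sgMed12 RUNX1 list held 2 more such sites, at 1700112H15Rik and Klf5, and no LP site overlapped a RUNX1 peak of any guide list. Of all Med12 peaks, 3.88% in Phase 1 overlapped the sgCont and 5.21% the sgMed12 RUNX1 list of that stage, and 2.86% to 6.45% in LP overlapped each of the 4 RUNX1 guide lists. The sites were chosen to lack RUNX1, so low counts here follow from the rule.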

How the data were processed

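ChIP-seq was done on Cas9-LP cells. Per the submitters' processing notes and the study's methods, the authors aligned reads to mm10 with Bowtie 1.1.1, called peaks with HOMER and kept peaks reproducible between 2 replicates. Each deposited list holds 1 position, 1 peak score and 1 annotation per peak. The deposited score is normalized by the authors on a scale the file headers do not state. Read depth per sample was not used, so a shorter list can reflect lower depth, and intervals cover counting error only.

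Coordinates were used as deposited, 1-based. Peaks sharing 1 bp were called overlapping, using scipy 1.17.1, pandas 2.3.3 and numpy 2.4.6 under Python 3.11.15. Shares carry 95% Wilson intervals. The 17 planned two-sided Fisher's exact tests and 5 added tests were adjusted separately by Benjamini-Hochberg, with a threshold of 0.05. Score classes were combined by the Mantel-Haenszel method. Strings were searched in 200 bp around the centre of GRCm38 with pysam 0.24.0 and samtools 1.23.1, for all but 20 of 69152 Med12 peaks, which lie on unplaced sequences. RefSeq symbols matched 69021 peaks, and named peaks were annotated with GENCODE. The overlap, gap and Mantel-Haenszel functions were tested on simulated data. Named sites were the 3 highest-scored of each class or those at a gene of the lists, and some of them are not reported here. The sites, lists, tests and alternatives were chosen with earlier results of these data known.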

Additional observations from a re-analysis of the deposited data

Results flagged for a closer look

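In 3 contrasts the p300/RUNX1-free sites stood apart from other Med12 peaks by a different amount in LP than in Phase 1, by a Wald test of the difference of log odds ratios, with adjustment over 5 contrasts. For CTCF, the LP odds ratio of 1.28 was 3.86 times the Phase 1 value of 0.332 (n = 677 and n = 1098 sites, adjusted p = 7.39e-17). For the CTCF consensus, 3.12 was 21.5 times 0.145 (n = 677 and n = 1097 windows, adjusted p = 0.00648), where the Phase 1 value rests on 1 site. For overlap with the Med12 list of the other stage, 0.0445 was 0.668 times 0.0666 (n = 677 and n = 1098 sites, adjusted p = 0.00840), and both lists share the sites that overlap. Both values follow in part from the rule, which used p300 and RUNX1 lists of both stages. The difference was not past the threshold for promoter annotation, where the ratio was 1.17 (n = 677 and n = 1098 sites, adjusted p = 0.478). For recovery by CTCF in the sgCbfb against the sgCont list at Phase 1 sites the ratio was 0.977 (n = 1098 sites, adjusted p = 0.963), from tests on the same sites. The cause of these differences was not tested.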

How the results depend on the processing

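The 24 results with a count or a test were recomputed under up to 9 alternatives, which gave 187 values. Of these, 157 kept their direction and their side of the threshold or, for a count of sites, stayed near the main count. Values below are odds ratios unless named. With scores of at least 30, the sites numbered 125 in LP and 145 in Phase 1, and these were no longer past the threshold: CTCF in LP (1.19) and Phase 1 (0.732), promoters between stages (1.27), sgCont recovery by CTCF (2.67), and recovery in the other stage by CTCF for LP (0.500) and Phase 1 sites (1.40). The Phase 1 consensus (1.30) and the ratio of sgCbfb-only to sgCont-only Phase 1 sites (0.933) turned. With a gap of at least 1 kb, sgCont recovery by CTCF (3.61), the Phase 1 consensus (0.182) and Phase 1 sites found in LP by CTCF (2.54) did not pass, and sgCbfb among sgCont sites turned (1.17). With lists of the same stage only, CTCF in LP (1.02) and the Phase 1 consensus (0.860) did not pass. Without promoter peaks, Phase 1 sites in LP by CTCF (1.99) did not pass and sgCbfb among sgCont sites turned (1.03). Without repeats, CTCF in LP (1.20) and the Phase 1 consensus (0.188) did not pass. Within score classes, LP promoters (0.817) and Phase 1 sites in LP by CTCF (1.73) did not pass. With equal numbers of top-scored peaks, Phase 1 sites numbered 259, promoters between stages turned (0.599), and the Phase 1 consensus (0.677), recovery in the other stage by CTCF (0.436 for LP, 1.56 for Phase 1) and sgCbfb against sgCont in Phase 1 (1.63) did not pass. With 50% overlap, Phase 1 sites in LP by CTCF (1.58) did not pass and sgCbfb among sgCont sites passed (0.462). The cause of these changes was not tested, beyond the fewer peaks that the score, gap and length settings leave. No paired analysis was possible because each list combines both replicates, and for the same reason no replicate could be left out.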
